A study of Mus musculus with 4 samples.

Results

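Collagen genes were taken as the rows whose NCBI gene ID maps to a mouse symbol made of Col, a number, the letter a and a number. Of the 17505 genes in the table, 44 carried such a symbol. Of these, 19 had a mean FPKM over all 4 libraries of 1 or more, and 25 were below that. FPKM is the number of fragments of a gene divided by its transcript length and by the number of mapped fragments, so levels can be set side by side between genes. Between libraries FPKM is a relative measure, which abundant genes that differ can shift.

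Collagens are the main structural proteins of the extracellular matrix, and each molecule is a triple helix of 3 chains, which may be copies of the same chain or products of different genes. Fibrillar collagens form the tensile fibres of the submucosa and the lamina propria. Collagen IV builds the sheet of the basement membrane under epithelium and around vessels, collagen VI forms beaded microfilaments between cells and fibres, and fibril-associated collagens sit on the surface of fibrils. In the gut wall these chains are made mostly by fibroblasts, smooth muscle cells and endothelial cells, not by the epithelium.

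The study asked what CREPT, the product of Rprd1b, does while the intestine recovers from irradiation. In Vil-CREPT-KO mice, CREPT fl/fl animals carry Cre recombinase under the villin promoter, which removes exon 3 of the gene from intestinal epithelial cells only, so fibroblasts, muscle and vessels keep the gene. WT and Vil-CREPT-KO mice, all of the C57BL/6 strain, received 10 Gy of X-rays, and RNA of the intestine was taken 3 days later, with 2 libraries per genotype and no unirradiated group among these libraries. The labels give neither age nor sex, nor the segment of intestine, and do not say which animals the libraries came from. For its mice as a whole, not by library, the study reports an age range in weeks and the use of both sexes. The study describes its RNA-seq as having 2 biological replicates, and a legend on untreated and irradiated intestines gives 2 mice per genotype. With 2 libraries per genotype, p-values measure only the spread between these libraries. The methods and labels speak of intestines, but the study's text on these data also speaks of crypts, so how much of the gut wall the RNA represents is not settled.

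Rprd1b measured 4.01 and 3.93 FPKM in libraries 1 and 2 of Vil-CREPT-KO and 5.99 and 7.19 FPKM in those of WT, a log2 difference that limma did not call (adjusted p = 0.129). The libraries had about 17300000 to 17900000 fragments each, estimated from the spacing of low values, and 1 fragment on a transcript of 5000 bases was then worth 0.011 to 0.012 FPKM. Stomach and gland mucous genes and pancreatic acinar genes differed strongly between the libraries. The 11 genes of a list of stomach and gland mucous genes were all called lower in Vil-CREPT-KO and held 0.00469% and 0.0204% of the summed FPKM there, against 6.91% and 7.39% in WT. Pancreatic acinar genes held 0.00352% and 1.997% in Vil-CREPT-KO 1 and 2 and 3.72% and 1.32% in WT 1 and 2. The labels do not give the stretch of tissue that each library holds, and in the collagen differences between the groups the tissue sampled and the loss of CREPT cannot be told apart.

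Start regions are shown for the most abundant collagen, for the collagen that differed most clearly between genotypes and for Col4a1 and Col4a2, a pair of expressed collagen genes that lie head to head. The letters are from RefSeq promoter windows of build GRCm38.p6, on the plus strand, and capitals mark the TATA box TATAAA, the CCAAT box and the GC box GGGCGG on either strand (the letters CCGCCC are a GC box read on the other strand).
Col3a1, the 250 bases before its start, chr1:45311288-45311537: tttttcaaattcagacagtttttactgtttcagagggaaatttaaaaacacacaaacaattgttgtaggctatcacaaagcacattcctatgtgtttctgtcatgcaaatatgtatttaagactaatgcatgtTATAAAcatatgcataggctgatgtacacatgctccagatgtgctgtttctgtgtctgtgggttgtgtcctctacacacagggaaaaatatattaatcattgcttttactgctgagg
Col11a2, 30 bases of its window, chr17:34038988-34039017: ctgggtcTATAAAcaccCCGCCCaggactg
Col4a1 and Col4a2, the 22 bases between the starts of their promoter windows, chr8:11312805-11312826: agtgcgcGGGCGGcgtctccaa
The stretch of Col3a1 held TATAAA at -117 from the start. That of Col11a2 held TATAAA at -143 and CCGCCC at -133, counted from the gene start that its window takes. The shown stretch of Col11a2 lies inside RefSeq's model of that gene, which begins at 34038919, so only a short run is given. The promoter windows take 11312826 on the minus strand as the start of Col4a1 and 11312805 on the plus strand of chromosome 8 as that of Col4a2, with a GGGCGG between them. The 22 bases shown run between these gene starts, not between the first bases of the windows. RefSeq's model of Col4a1 reaches further, to 11312889, so that the gene models overlap by more than the bases shown. Among the collagens under the filter, the models of Col4a3 and Col4a4 on chromosome 1 overlap too. Windows of 300 bases, from 250 before the start to 50 after it, were matched for 15 of the 19 collagen genes, giving 17 windows. GGGCGG was found in 10 of the 17 (58.8%), against 35.7% of the 32851 windows of all genes. These windows are not independent. Windows of the same gene are counted apart, and those of Col4a1 and Col4a2 overlap, so the GGGCGG shown above counts in both. TATAAA was found in 3 of them (17.6%, against 13.6%), and CCAAT in 6 (35.3%, against 37.4%). A match describes the letters and is not a measured binding site.

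Nearly all expressed collagens had a higher mean in the irradiated Vil-CREPT-KO intestine than in WT, but none of these differences was called. The summed level of the 44 genes was 439.5 and 255.2 FPKM in libraries 1 and 2 of Vil-CREPT-KO and 140.8 and 223.5 FPKM in those of WT. The means of these sums, 347.3 ± 130.3 against 182.2 ± 58.5 FPKM (SD, n = 2), differed by a factor of 1.91. Vil-CREPT-KO 1 was far above the other libraries and WT 1 far below them, while Vil-CREPT-KO 2 and WT 2 were close together. Collagens made up 0.0754%, 0.0455%, 0.0249% and 0.0389% of all FPKM in the same order of libraries.

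In the test of each gene, limma compared the genotypes on log2(FPKM + 1), a scale that understates the differences of low genes, and calls needed an adjusted p below 0.05 together with a log2 fold change above 1 or below -1. No collagen was called higher, where 0.387% of the 11621 tested genes were, and 1 of 19, Col11a2, was called lower (5.26%), where 1.69% of all tested genes were. The log2 fold change was above 0 for 18 of the 19 collagens, with values from 0.30 to 1.31, and for 57.4% of all tested genes. Its median over the 19 was 0.84, against 0.06 over all tested genes, and 0.13 over the 44 collagens with no filter on low values. Both Vil-CREPT-KO values lay above both WT values for 14 of 19 collagens (73.7%) and for 31.9% of all tested genes, and both lay below for 1 of 19 (5.26%, against 22.1%). An unadjusted limma p under 0.05 with a higher level in Vil-CREPT-KO was reached by 11 of 19 (57.9%), against 10.2% of all tested genes, and the adjusted p of the 18 uncalled collagens ran from 0.104 to 0.516. The highest value was in Vil-CREPT-KO 1 and the lowest in WT 1 for 16 of the 19 (84.2%), against 23.3% of all tested genes. Col11a2 and Col20a1 reached the mean of 1 FPKM only through the genotype in which they were high.

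**Figure D1:**
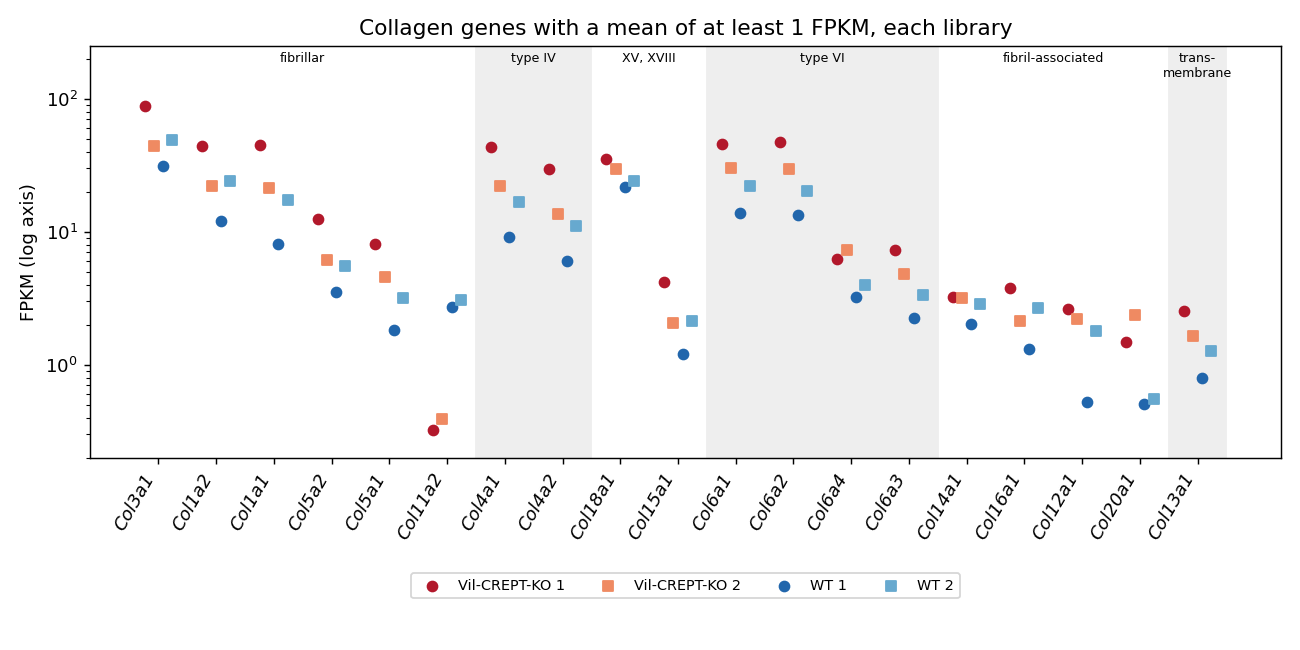
FPKM (log axis) of the 19 collagen genes whose mean was 1 FPKM or more, grouped by collagen type, with a symbol for each library. Vil-CREPT-KO 1 is the highest and WT 1 the lowest library for 16 genes, and Col11a2 is the gene with both Vil-CREPT-KO values (0.32 and 0.39 FPKM) below both WT values (2.72 and 3.08 FPKM).

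The fibrillar collagens, with 6 of 11 genes tested, summed to 201.1 and 99.8 FPKM in libraries 1 and 2 of Vil-CREPT-KO and 60.1 and 103.9 FPKM in those of WT. Col3a1 (gene ID 12825, chromosome 1, 45311538 to 45349706), the chain of collagen III in pliable tissues, was the most abundant collagen. Its level was 88.5 and 43.8 FPKM in libraries 1 and 2 of Vil-CREPT-KO and 31.2 and 49.4 FPKM in those of WT. The genotypes overlapped, and the log2 fold change was 0.65 (SE 0.40, limma adjusted p = 0.410).

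Collagen I, the main collagen of most connective tissue, is a helix of chains from Col1a1 and Col1a2. Col1a1 (chromosome 11, 94936224 to 94953042) measured 45.0 and 21.3 FPKM in Vil-CREPT-KO, against 8.13 and 17.2 FPKM in WT, with no overlap between the genotypes. Its log2 fold change on the log2(FPKM + 1) scale was 1.31 (SE 0.47, limma adjusted p = 0.221). Col1a2 (chromosome 6) was at 44.1 and 22.2 FPKM against 11.99 and 24.1 FPKM, with overlap, and differed by 0.84 on the log2 scale (SE 0.44, limma adjusted p = 0.355). The ratio of the partner chains of collagen I was higher in both Vil-CREPT-KO libraries. Col1a1 relative to Col1a2 was 1.02 and 0.957 in Vil-CREPT-KO, against 0.678 and 0.714 in WT, and the ratio of Col1a1 to Col3a1 was 0.508 and 0.486 against 0.261 and 0.348. The mean ratio of Col1a1 to Col1a2 was 0.989 ± 0.0450 in Vil-CREPT-KO and 0.696 ± 0.0251 in WT (SD, n = 2), with an exact two-sided permutation p of 0.333, the smallest that 2 against 2 libraries can give.

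Collagen V is a minor component that regulates the width of collagen I fibrils. Col5a2 (chromosome 1) measured 12.4 and 6.13 FPKM in Vil-CREPT-KO, against 3.54 and 5.53 FPKM in WT. Col5a1 (chromosome 2) was at 8.15 and 4.60 against 1.82 and 3.16 FPKM. Neither overlapped between the genotypes, and the log2 fold changes were 0.84 (SE 0.35) for Col5a2 and 1.06 (SE 0.31) for Col5a1, with limma adjusted p = 0.271 and 0.162. As for collagen I, the ratio of the chains was higher in Vil-CREPT-KO, with Col5a1 relative to Col5a2 at 0.658 and 0.750 against 0.514 and 0.571. The genes Col3a1 and Col5a2 are neighbours on chromosome 1, with 24624 bases between them.

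Col11a2 encodes a chain of collagen XI, a minor fibrillar collagen best known from cartilage. It was the collagen called lower. Its level was 0.32 and 0.39 FPKM in Vil-CREPT-KO, against 2.72 and 3.08 FPKM in WT, so the genotypes were well apart and the libraries of each genotype close together. The means were 0.355 ± 0.0495 and 2.90 ± 0.255 FPKM (SD, n = 2), an 8.17-fold difference, and the log2 fold change was -1.52 (SE 0.15, limma adjusted p = 0.0208). Its log2 fold change was -1.49 without Vil-CREPT-KO 1 and -1.56 without Vil-CREPT-KO 2. It was -1.59 without WT 1 and -1.46 without WT 2. The call ended with the replicate number as a block (limma adjusted p = 0.0660), though the labels do not pair the libraries. It also ended at a pseudocount of 5, where the log2 fold change of -0.56 missed the fold threshold and the limma adjusted p was 0.0220. Among the partner chains of collagen XI, Col11a1 was not above 0.11 FPKM in any library. Col9a3, a chain of cartilage collagen IX, was under the filter and had both Vil-CREPT-KO values below both WT values as well, at 0.13 and 0.28 FPKM in Vil-CREPT-KO, against 1.36 and 1.31 FPKM in WT. With no filter its log2 fold change was -0.96 and its limma adjusted p 0.0602, so it was not called. Col28a1, also under the filter, measured 0.12 and 0.13 FPKM against 0.31 and 0.36 FPKM. Col11a2 and Col9a3 thus differed between genotypes in the direction of the stomach and gland mucous genes, whose part in these values was not tested.

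The basement membrane was represented by collagen IV, whose common molecule joins chains of Col4a1 and Col4a2. Col4a1 measured 43.4 and 22.3 FPKM in Vil-CREPT-KO, against 9.17 and 16.6 FPKM in WT. Col4a2 was at 29.8 and 13.6 FPKM against 6.02 and 11.0 FPKM. Neither gene overlapped between the genotypes, and both means were 2.55-fold higher in Vil-CREPT-KO. The log2 fold changes were 1.26 (SE 0.41, limma adjusted p = 0.185) for Col4a1 and 1.21 (SE 0.43, limma adjusted p = 0.221) for Col4a2, so neither difference passed the test. Their ratio was steady while their levels varied several-fold, with Col4a1 relative to Col4a2 at 1.46, 1.63, 1.52 and 1.51 in the order Vil-CREPT-KO 1, Vil-CREPT-KO 2, WT 1, WT 2. The mean ratio was 1.55 ± 0.123 against 1.52 ± 0.0103 (SD, n = 2, exact permutation p = 1.0). These are the head-to-head genes shown above, and where their transcripts overlap, reads were divided between them by estimate. The other 4 collagen IV chains, which form more specialised networks such as that of the kidney filter, were low. Col4a5 was at 0.41 to 0.71 FPKM, Col4a6 at 0.15 to 0.25 FPKM, and Col4a3 and Col4a4 had means under 0.1 FPKM.

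Collagens XV and XVIII are proteoglycans of basement membrane zones, and the end of the collagen XVIII chain can be cleaved to endostatin, an inhibitor of vessel growth. Col18a1 (chromosome 10) measured 35.2 and 29.5 FPKM in Vil-CREPT-KO, against 21.8 and 23.9 FPKM in WT, and its SDs relative to the mean were small among the abundant collagens. Its log2 fold change was 0.48 (SE 0.16, limma adjusted p = 0.195), with no overlap. Its share of the summed collagen FPKM was 8.01% and 11.6% in Vil-CREPT-KO 1 and 2, and 15.5% and 10.7% in WT 1 and 2. Col15a1 (chromosome 4), found around vessels and muscle, was at 4.20 and 2.07 FPKM against 1.21 and 2.14 FPKM, with overlap (log2 fold change 0.60, SE 0.32, limma adjusted p = 0.359).

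Collagen VI had 4 tested chains of 6. All of them were higher in both Vil-CREPT-KO libraries than in both WT libraries, as were 31.9% of all tested genes. Col6a1, at 45.9 and 29.9 FPKM in Vil-CREPT-KO, against 13.8 and 22.2 FPKM in WT, differed by 1.04 on the log2 scale (SE 0.31, limma adjusted p = 0.162). Col6a2, its neighbour on chromosome 10, was at 47.1 and 29.8 FPKM against 13.4 and 20.3 FPKM (log2 fold change 1.14, SE 0.30, limma adjusted p = 0.137). Col6a3, whose long chain completes the helix, was at 7.29 and 4.81 FPKM against 2.24 and 3.34 FPKM (log2 fold change 0.89, SE 0.25, limma adjusted p = 0.153). The proportions of these chains varied little. Col6a1 relative to Col6a2 was 0.975 and 1.003 in Vil-CREPT-KO, against 1.027 and 1.094 in WT, slightly lower in Vil-CREPT-KO with no overlap (exact permutation p = 0.333). Col6a3 relative to Col6a1 was 0.159 and 0.161 against 0.163 and 0.151, with overlap (exact permutation p = 1.0).

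Col6a4, a further collagen VI chain, stood apart from this order of libraries. It measured 6.24 and 7.31 FPKM in Vil-CREPT-KO, against 3.23 and 3.99 FPKM in WT, higher in Vil-CREPT-KO 2 than in Vil-CREPT-KO 1. Its log2 fold change of 0.76 (SE 0.16) had the lowest adjusted p of the uncalled collagens (limma adjusted p = 0.104). Its neighbours on chromosome 9 are further collagen VI chains. Of these, Col6a5 was at 0.60 to 0.92 FPKM with overlap between the genotypes, and Col6a6 had a mean under 0.1 FPKM.

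**Figure D2:**
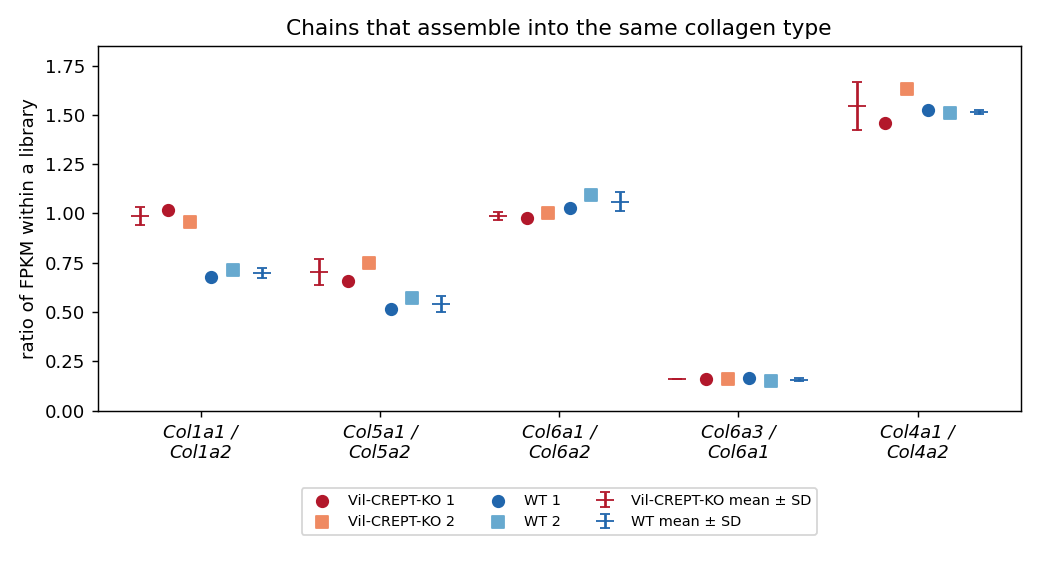
Ratio of FPKM between chains of the same collagen type (linear axis from 0), for each library, with the mean ± SD of each genotype (n = 2). Col4a1 to Col4a2 overlaps between the genotypes at 1.46 to 1.63, whereas Col1a1 to Col1a2 is at 1.02 and 0.957 in Vil-CREPT-KO and at 0.678 and 0.714 in WT.

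Among the fibril-associated collagens, 4 of 9 were tested. Col14a1 (chromosome 15), which binds fibrils in mature tissue, measured 3.23 and 3.19 FPKM in Vil-CREPT-KO, against 2.03 and 2.85 FPKM in WT, the smallest difference above 0 (log2 fold change 0.30, SE 0.18, limma adjusted p = 0.392). Col16a1 (chromosome 4) was at 3.75 and 2.13 FPKM against 1.30 and 2.68 FPKM and overlapped (log2 fold change 0.41, SE 0.32, limma adjusted p = 0.516). Col12a1 (chromosome 9), a fibril-binding collagen of tendon and healing wounds, was at 2.61 and 2.21 FPKM against 0.52 and 1.78 FPKM, where WT 1 was the low library (log2 fold change 0.73, SE 0.31, limma adjusted p = 0.278).

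Col20a1 (chromosome 2) also did not follow the common order of libraries. It measured 1.48 and 2.38 FPKM in Vil-CREPT-KO, against 0.51 and 0.55 FPKM in WT, a mean 3.64-fold higher in Vil-CREPT-KO. Its log2 fold change was 0.92 (SE 0.20, limma adjusted p = 0.108), and was 1.14 without Vil-CREPT-KO 1 and 0.70 without Vil-CREPT-KO 2. Col13a1 (chromosome 10), a transmembrane collagen of cell adhesion sites, was at 2.55 and 1.65 FPKM against 0.79 and 1.26 FPKM (log2 fold change 0.61, SE 0.22, limma adjusted p = 0.227).

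**Figure D3:**
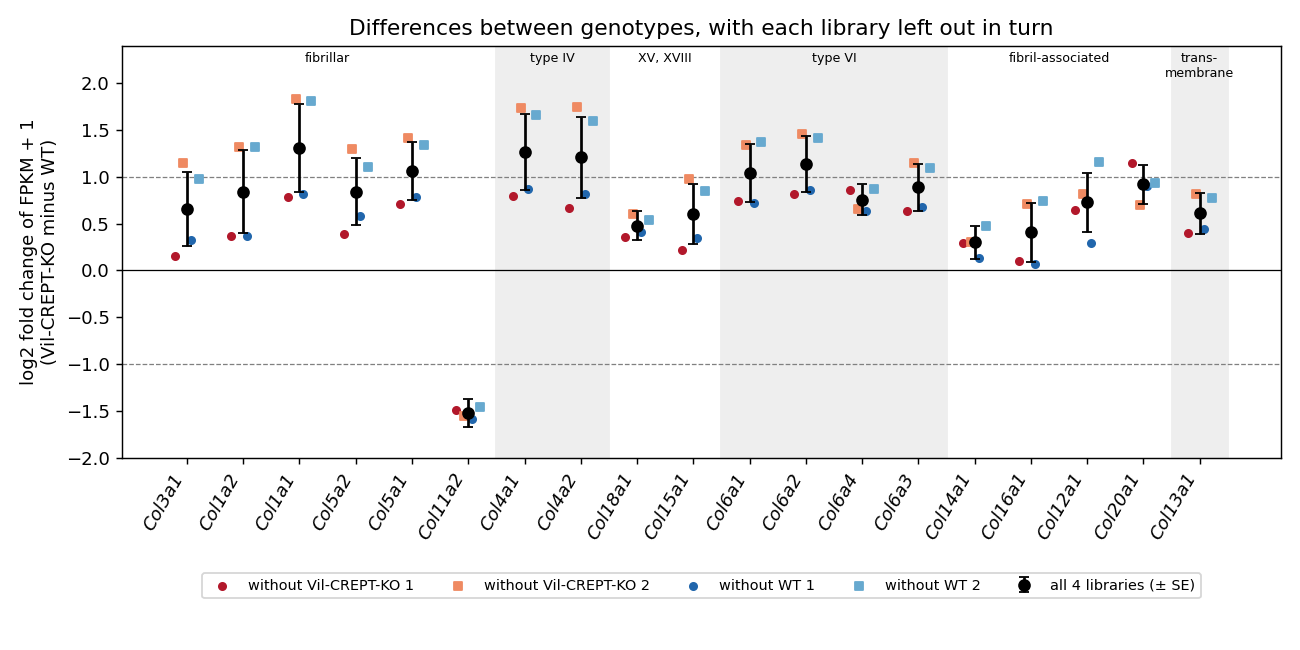
Log2 fold change of FPKM + 1 (Vil-CREPT-KO minus WT) of the 19 tested collagen genes, with all 4 libraries (black, ± SE) and with each library left out in turn (colours). The dashed lines mark the fold thresholds of 1 and -1. For 18 genes every point is above 0, and the points without Vil-CREPT-KO 2 or WT 2 are mostly above those without Vil-CREPT-KO 1 or WT 1.

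The size of the differences rested on single libraries. Leaving out a library leaves 1 in its group, so only effect sizes are given here. The median log2 fold change of the 19 genes was 1.15 without Vil-CREPT-KO 2, against 0.08 over all tested genes. Without WT 1 it was 0.58, against -0.004 over all tested genes. Col3a1 went from 1.15 without Vil-CREPT-KO 2 to 0.15 without Vil-CREPT-KO 1. With each library left out in turn, 18 of 19 log2 fold changes were above 0.

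The remaining 25 collagens had means under 1 FPKM and values from 0 to 1.5 FPKM. Just inside the limit were Col20a1 with a mean of 1.23 and Col13a1 with 1.56 FPKM, and just outside it Col23a1 with 0.973 and Col8a1 with 0.885 FPKM. Col8a1, a network collagen of vessel walls, was at 0.28 to 1.5 FPKM, Col23a1 at 0.75 to 1.28 FPKM, Col27a1 at 0.46 to 1.33 FPKM and Col5a3 at 0.14 to 1.19 FPKM. Col7a1, the anchoring fibril chain of skin, was at 0.31 to 0.48 FPKM. Col28a1 was at 0.12 to 0.36, Col22a1 at 0.10 to 0.27, Col24a1 at 0.03 to 0.29, Col8a2 at 0.05 to 0.27 and Col9a2 at 0.04 to 0.27 FPKM. In 11 genes the mean was under 0.1 FPKM and no value was above 0.11 FPKM, among them Col2a1 of cartilage, Col10a1 of growth plates and Col17a1 of epithelial hemidesmosomes. The others were Col4a3, Col4a4, Col6a6, Col9a1, Col11a1, Col19a1, Col25a1 and Col26a1. Col6a6, Col9a1, Col10a1, Col11a1, Col17a1, Col19a1 and Col26a1 were listed at 0 in at least 1 library.

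Most of the collagen FPKM came from few genes, whose shares varied between libraries. Col3a1, Col6a1, Col6a2, Col18a1, Col1a2, Col1a1, Col4a1 and Col4a2 together held 86.2%, 83.2%, 82.0% and 82.6% of the summed collagen FPKM, in the order Vil-CREPT-KO 1, Vil-CREPT-KO 2, WT 1, WT 2. Col3a1 alone held 20.2%, 17.2%, 22.1% and 22.1%. The share of Col1a1 varied more, at 10.2%, 8.34%, 5.77% and 7.69%, and so did that of Col18a1 given above.

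Genes that make, cut, bind and degrade collagen were examined next. Over all tested genes 0.387% were called higher and 1.69% lower, which applies here and to the lists that follow. Of 18 tested genes for chain folding and modification, none was called, and the median log2 fold change was 0.20. The list summed to 1045 and 1132 FPKM in Vil-CREPT-KO, against 1106 and 1100 FPKM in WT. The most abundant were P4hb, the disulfide isomerase that is also a subunit of prolyl 4-hydroxylase (615.0, 722.5, 711.7 and 655.6 FPKM), and Ppib, a prolyl isomerase (152.7, 155.3, 193.7 and 209.4 FPKM). Values of 4 libraries are in the order Vil-CREPT-KO 1, Vil-CREPT-KO 2, WT 1, WT 2 here and for the genes that follow. Both enzymes serve many secreted proteins besides collagen. None of 2 tested genes for procollagen processing was called, with the enhancer Pcolce at 20.9, 13.2, 9.53 and 15.1 FPKM and the proteinase Bmp1 at 7.14, 8.34, 5.43 and 8.82 FPKM. None of 3 tested crosslinking genes was called either. The lysyl oxidase Loxl2 measured 13.0 and 7.48 FPKM in Vil-CREPT-KO, against 3.5 and 5.30 FPKM in WT (log2 fold change 1.03, limma adjusted p = 0.161), and Loxl1, another lysyl oxidase, was at 6.67 and 2.25 against 2.09 and 3.57 FPKM.

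Proteoglycans that bind fibrils had a median log2 fold change of -0.38 over 6 tested genes, none called, but a summed level whose mean was higher in Vil-CREPT-KO (312.5 and 180.6 against 127.1 and 213.5 FPKM), since the sum is set by abundant members. Decorin, encoded by Dcn, was at 178.3, 92.1, 71.9 and 117.3 FPKM, and biglycan, encoded by Bgn, at 103.4 and 70.9 FPKM against 27.9 and 46.0 FPKM (log2 fold change 1.23, limma adjusted p = 0.130). Of 7 tested collagen receptors none was called (median 0.24), with the integrin Itgb1 at 116.4, 88.9, 78.1 and 94.8 FPKM and the discoidin receptor Ddr1 at 30.9, 33.0, 31.4 and 30.2 FPKM.

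Of 5 tested genes for collagen degradation, Mmp13, an interstitial collagenase, was called higher, at 17.7 and 17.5 FPKM in Vil-CREPT-KO, against 5.88 and 6.56 FPKM in WT. Its mean was 2.83-fold higher (log2 fold change 1.37, SE 0.14, limma adjusted p = 0.0198). The call ended with no filter (limma adjusted p = 0.0541) and with the replicate number as a block (limma adjusted p = 0.0559). The log2 fold change of Mmp13 was 1.36 without Vil-CREPT-KO 1 and 1.37 without Vil-CREPT-KO 2. It was 1.30 without WT 1 and 1.43 without WT 2. Over all tested genes, 0.387% were called higher. Both Vil-CREPT-KO values lay above both WT values for all 5, against 31.9% of all tested genes, and the median log2 fold change of the 5 was 1.11. Mmp14, a membrane-bound collagenase, was at 55.1 and 37.8 against 25.0 and 25.6 FPKM, and the gelatinase Mmp2 at 31.4 and 17.8 against 7.64 and 14.2 FPKM, neither called.

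Among markers of the cells that make collagen, the endothelial sum followed the order of libraries seen in the summed collagens, and the fibroblast sum that of the fibrillar collagens. The sum of 14 endothelial markers was 144.6 and 83.3 FPKM in libraries 1 and 2 of Vil-CREPT-KO and 40.2 and 65.4 FPKM in those of WT. All 12 tested had log2 fold changes above 0 (median 0.75), against 57.4% of all tested genes. Tie1, an endothelial receptor kinase, was called higher, where 0.387% of all tested genes were. It was at 14.2 and 8.41 against 2.21 and 2.66 FPKM (log2 fold change 1.80, limma adjusted p = 0.0455). The call of Tie1 ended with a pseudocount of 5, no filter, no variance trend or a replicate block (limma adjusted p from 0.0501 to 0.110). Its log2 fold change was 1.46 without Vil-CREPT-KO 1 and 2.15 without Vil-CREPT-KO 2. It was 1.71 without WT 1 and 1.90 without WT 2. The sum of 13 fibroblast markers was 281.1 and 170.8 FPKM against 129.0 and 200.8 FPKM, overlapping, with none of 12 tested genes called (median 0.49). Among them, Sparc was at 98.7, 54.2, 29.5 and 53.5 FPKM and Vim at 61.2, 31.5, 25.5 and 36.6 FPKM. The 10 smooth muscle markers summed to 1011 and 664.8 FPKM against 747.3 and 1145 FPKM, none called, with a median log2 fold change of -0.46. In bulk RNA, fewer cells of a type and less RNA per cell cannot be told apart.

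Set against these markers within each library, the mean levels of the collagens were higher in Vil-CREPT-KO. Collagen IV relative to the endothelial sum was 0.512 and 0.440 in Vil-CREPT-KO, against 0.398 and 0.439 in WT, so Vil-CREPT-KO 2 and WT 2 were almost equal. Fibrillar collagens relative to the fibroblast sum were at 0.716 and 0.584 against 0.466 and 0.517. Collagen VI relative to the fibroblast sum was at 0.382 and 0.424 against 0.258 and 0.253, a 1.58-fold difference between the mean ratios. Fibrillar collagens relative to the smooth muscle sum were at 0.199 and 0.150 against 0.0804 and 0.0907, a 2.04-fold difference. The exact permutation p was 0.333 for each of these ratios, the smallest possible, and the pairs were chosen with the values known.

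**Figure D4:**
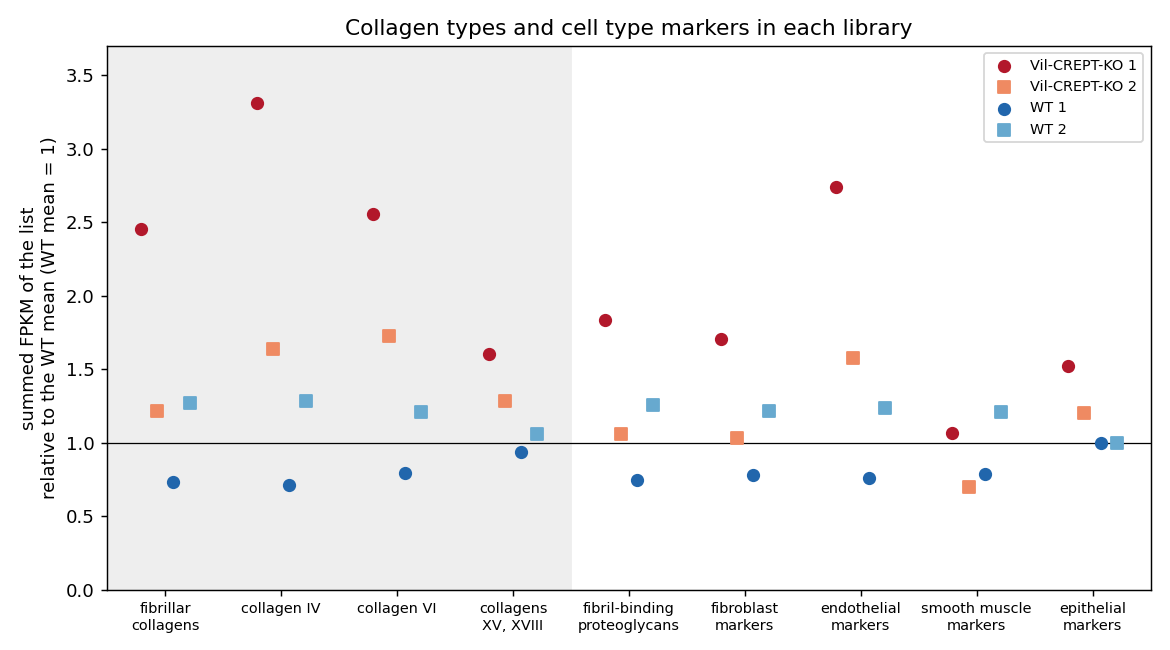
Summed FPKM of collagen types (shaded) and of proteoglycan and cell type marker lists, relative to the WT mean of each list (linear axis from 0, line at 1), for each library. Collagen IV is at 3.31 and 1.64 in Vil-CREPT-KO 1 and 2 and the endothelial markers at 2.74 and 1.58, while smooth muscle markers are at 1.07 and 0.703.

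The epithelial, immune and adipocyte sums were higher in both Vil-CREPT-KO libraries than in both WT libraries, and the mesothelial and enteric glia sums were not. The 11 epithelial markers summed to 11510 and 9094 FPKM in Vil-CREPT-KO, against 7583 and 7554 FPKM in WT, none called (median log2 fold change 0.42), with Krt8 at 2938, 2330, 1786 and 1783 FPKM and Krt19 at 2555, 2065, 1726 and 1715 FPKM. Immune markers summed to 57.8 and 37.4 against 26.5 and 25.2 FPKM, with none of 8 tested genes called and a median log2 fold change of 0.76. Both Vil-CREPT-KO values lay above both WT values for 7 of the 8, against 31.9% of all tested genes. In these libraries Csf1r was at 13.2, 11.0, 8.11 and 7.52 FPKM and Cd79a at 11.3, 8.21, 6.45 and 5.71 FPKM, while S100a8 and S100a9 were listed at 0 in at least 1 library. Adipocyte markers summed to 106.7 and 90.8 against 89.7 and 86.7 FPKM. However, both Vil-CREPT-KO values lay above both WT values for 0 of the 4 tested adipocyte genes. Cidec was at 67.4, 90.0, 86.3 and 80.8 FPKM, and Cfd at 29.3, 0.19, 1.70 and 3.27 FPKM. Mesothelial markers summed to 45.9 and 20.2 against 31.1 and 27.1 FPKM, and enteric glia markers to 5.14 and 4.12 against 5.37 and 9.34 FPKM. No gene was called among 4 mesothelial (Msln and Upk1b the most abundant), 4 adipocyte (Cidec and Cfd) and 3 enteric glia markers (S100b and Gfap), and the adipocyte genes Lep and Retn were listed at 0 in at least 1 library. The part of any of these cell types in the collagen values was not tested.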

How the data were processed

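The 4 libraries of irradiated intestine were grouped by the genotype in their labels, 2 per group. The authors deposited FPKM values, made by mapping clean reads to GRCm38.p6 transcripts with Bowtie2 and estimating levels with RSEM, which divides reads shared by similar or overlapping genes. The submitters' processing notes also list HISAT and mm10, with tool versions not given in the sources used here. Since FPKM values are relative to all mapped fragments, abundant genes that differ between libraries shift the others. The authors tested with DESeq2. Read counts were not used here and no count model was run.

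Symbols were matched for 17473 of 17505 gene IDs. The 11621 genes whose mean was 1 FPKM or more were fitted on log2(FPKM + 1) with limma 3.58.1 in R 4.3.3, with a mean-variance trend, two-sided, with Benjamini-Hochberg adjustment over all of them. Residual degrees of freedom were 2 and prior ones 3.08. The fit was also run on simulated data in which genes varied independently, unlike these collagens, so no error rate for them follows. An exact permutation p of 2 against 2 libraries cannot go below 0.333. Errors are SDs over n = 2 or limma standard errors. Depth was inferred from the spacing of low values of short genes, so no counting interval is given.

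The rule named every collagen with a mean of at least 1 FPKM, the others with their range, and of each supporting list the called members or its 2 most abundant tested members. Mmp14 and Mmp2, S100a8, S100a9, Lep and Retn, and the chain ratios were added after values were seen. The collagens and all lists were chosen with earlier results of these data known. The alternatives were other pseudocounts and filters, quantile normalization, centring, rescaling without stomach mucous and pancreatic genes, no trend, robust moderation, adjusted p alone, a replicate block and leaving out each library.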

Additional observations from a re-analysis of the deposited data

How the results depend on the processing

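Over all tested genes, 45 were called higher and 196 lower. With a pseudocount of 5 these counts were 21 and 120, with no filter 5 and 73, and with the replicate block 14 and 108. With each library left out in turn there were 0 to 408 higher and 4 to 492 lower. The call of Col11a2, the 1 collagen called lower, was lost (0 collagens called lower) with the pseudocount of 5, with the block and with a filter at a mean of 5 FPKM, which left 10 collagens and not this gene. Leaving out each library gave 0 to 1 collagens lower and 0 to 8 higher. The median log2 fold change of the tested collagens was 0.84, 0.50 with a pseudocount of 5, 0.13 over all 44 with no filter, and 0.58 to 1.15 with a library left out. Of the supporting collagen pathway genes, 1 (Mmp13) was called higher and 0 lower. None (0) was called higher with no filter or with the block, 1 (Mia3) was called lower after rescaling and with the adjusted p alone, and 0 to 6 were called higher with a library left out. The causes were not tested, other than fewer samples or genes in the fit. With a library left out, the most genes were called higher without Vil-CREPT-KO 2, among all tested genes, collagens and pathway genes alike. That fit leaves only Vil-CREPT-KO 1 in its group, the highest library for most of the tested collagens. No conclusion is drawn from the counts with a library left out. Of 276 values of single genes under the alternatives, 0 reversed, 4 lost and 9 gained a call. Rescaling without stomach mucous and pancreatic genes moved the median of all genes from 0.06 to -0.05 and that of the collagens to 0.72.

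The labels do not pair the libraries. The correlation between deviations of libraries with the same replicate number was -0.26 over 2 pairs. The limits are 2 libraries per genotype, stomach and gland mucous genes that differ together with genotype, and FPKM values without counts. At this depth, collagens under 0.1 FPKM rest on few fragments.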
